A study of Homo sapiens with 2 samples.

Results

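The cytosolic ribosomal protein genes and their paralogs were taken as every gene of which at least 1 probe set was annotated to exactly 1 symbol starting with RPL or RPS and a digit, or to RPLP0, RPLP1, RPLP2 or RPSA. Kinases named RPS6K, RPS4Y genes, pseudogenes, antisense and divergent transcripts were left out, as was RPS19BP1, which binds a ribosomal protein and is not one. This gave 60 of the 19775 genes that a probe set was annotated to alone, measured by 121 of 54613 probe sets. Of these, 52 were core genes, 32 of the large and 20 of the small subunit, and 8 were paralogs whose symbols end in L or L1. Another 25 core genes of the RefSeq table had no probe set annotated to them alone and were not analysed here.

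RNA levels were measured on single-colour Affymetrix arrays. The cells were SW620, a cultured human colorectal cancer line that was established from a lymph node metastasis. The SOX2 knockdown array held RNA of cells infected with a lentivirus for a hairpin against this stem cell transcription factor. The mock knockdown array held RNA of cells given a lentivirus with a non-targeting hairpin. Both groups shared the line, RPMI medium and the type of vector, and the labels give neither clones nor time after infection. With 1 array for each group there were no replicates, nothing could be tested and every difference compares 2 arrays.

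The sample titles end in KO where the source names read knockdown, and a description field shared by both samples names a mouse liver study, which the human organism entry and source names do not. SOX2 was checked first. A value was taken as measured from a floor of 68.5 upward, the median of all values. The brightest SOX2 probe set, 228038_at, had an intensity of 20.9 on the SOX2 knockdown array, against 2077 on the mock array, at least 30.3-fold lower when set against the floor. At 213721_at it had 120 on the SOX2 knockdown array, against 333 on the mock array. Its other 2 probe sets did not reach the floor. All 8 markers of a colorectal epithelial line reached the floor, among them EPCAM at 9898 on the SOX2 knockdown array and 8910 on the mock array. They were not level as a group. VIL1 had 867 on the SOX2 knockdown array against 2063 on the mock array (2.38-fold lower). CDH1 (1.88-fold), CDX2 (1.67-fold) and KRT8 (1.58-fold) were higher. CDX2 was near the floor, at 116 on the SOX2 knockdown array and 69.2 on the mock array. Log2 differences (SOX2 knockdown minus mock) ran from -1.25 to -0.19 over 4 probe sets of VIL1 and from 0.34 to 0.91 over 2 of CDH1. Of the markers of other cell types, 1 of 3 for leukocytes, 2 of 4 for fibroblasts and 2 of 3 for endothelium reached the floor. Among them PTPRC, CD3E, COL1A2, COL3A1 and CDH5 did not. COL1A1 had 237 on the SOX2 knockdown array and 290 on the mock array, and DCN had 110 against 91.5. PECAM1 had 105 on the SOX2 knockdown array and 123 on the mock array, and VWF had 93.4 against 102. CD14 stood at 156 on the SOX2 knockdown array and at 43.6, under the floor, on the mock array. The part of these markers in any result was not tested.

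The ribosome joins amino acids in the order an mRNA gives. Its small subunit reads the mRNA, its large subunit forms the peptide bond, and each is built of ribosomal RNA and ribosomal proteins that are needed in matching amounts. In vertebrates most mRNAs of these proteins start with a C and a run of pyrimidines, called a TOP sequence, through which the mTORC1 kinase pathway controls their translation together. A few core genes have a paralog elsewhere in the genome, several of them expressed mainly in 1 tissue.

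Core ribosomal protein genes were nearly level between the SOX2 knockdown and mock arrays. Of 52 core genes 51 reached the floor at their brightest probe set, and 0 of them differed by 2-fold, against 15.7% of the 13609 genes that reached it (8.44% higher and 7.29% lower on the SOX2 knockdown array). At a limit of 1.5-fold the count was also 0, against 29.8% of all genes. The median log2 difference, SOX2 knockdown minus mock in every value below, was -0.04 over the core genes and -0.01 over all genes, and 46 of 51 core genes lay within 0.2 of 0 against 38.5% of all genes. Differences of core genes ran from -0.47 to 0.46, with an SD of 0.14 across genes. Of the 51, 35 lay below 0, or 68.6%, against 50.5% of all genes. Counts below 0 depend on the normalization, because centring each array on its median raises every difference by 0.02. RPL27, RPS14, RPL23A, RPS3 and RPS23 lay below 0 by less than that. The deposited values had also been normalized between arrays, and 47 of the 110 genes with a mean intensity of at least 10000 were core genes. Normalization can therefore have reduced a shift shared by the core genes, which these values cannot show. In bulk RNA fewer cells of a type and less RNA per cell cannot be told apart.

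**Figure D1:**
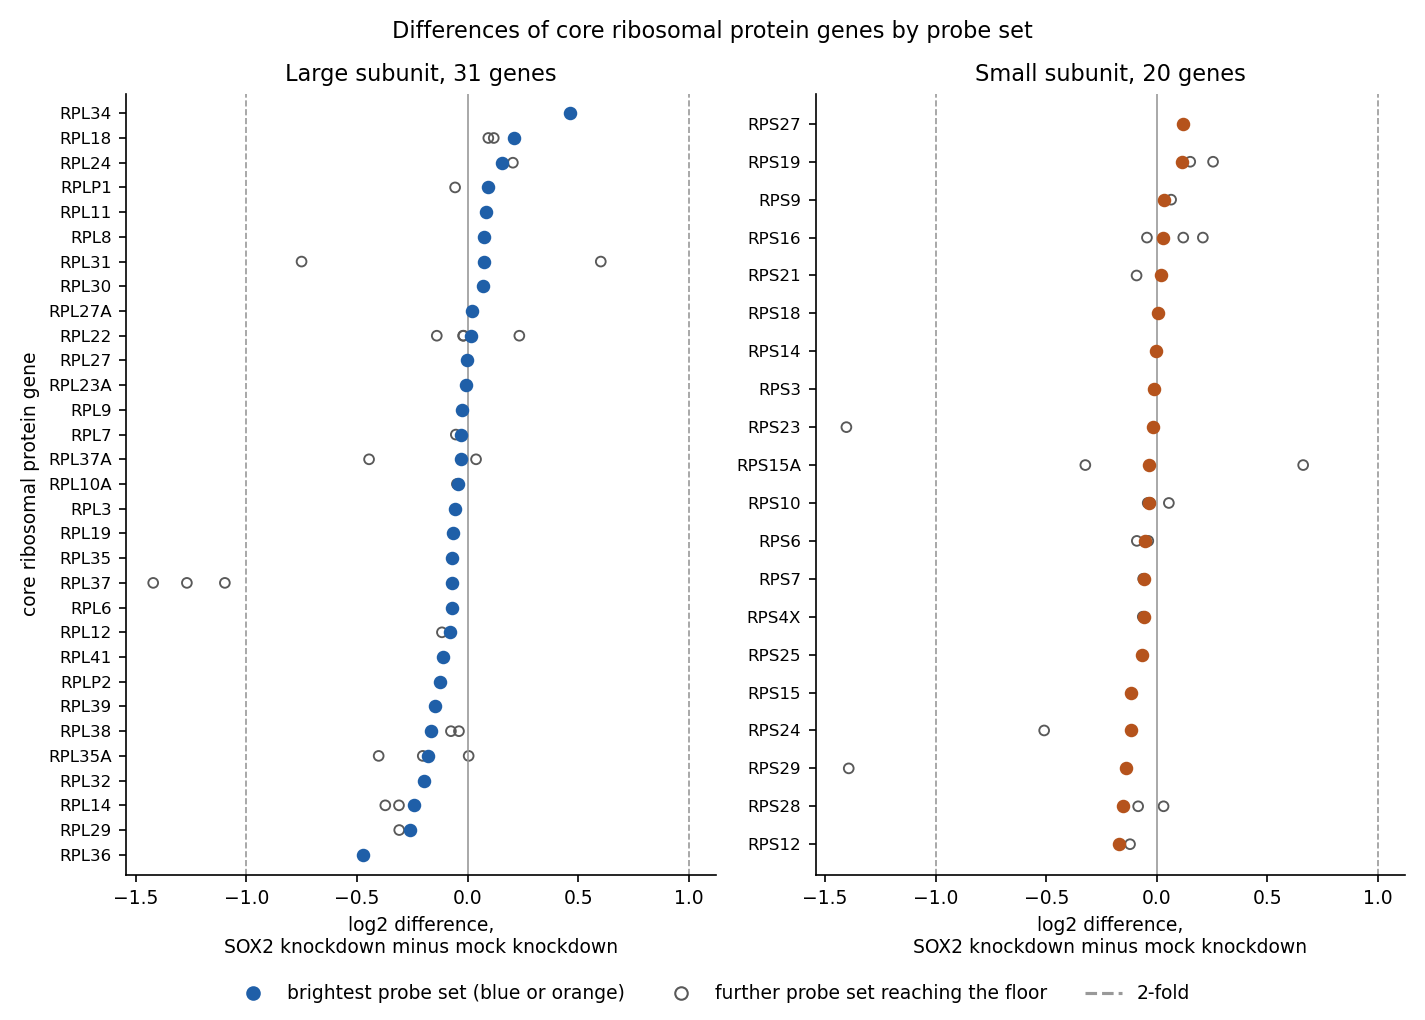
Log2 difference (SOX2 knockdown minus mock) of each of 51 core genes, large subunit on the left and small subunit on the right, with filled points for the brightest probe set and open points for further probe sets reaching the floor. All filled points lie between -0.47 and 0.46, while RPL37, RPS23 and RPS29 have open points beyond the dashed 2-fold line on the lower side.

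The 20 small subunit genes had a median of -0.03, with 14 of 20 below 0 and a range from -0.17 to 0.12. The 31 large subunit genes had a median of -0.04, with 21 of 31 below 0 and a wider range, from -0.47 to 0.46. The ends of the large subunit's range were RPL34 and RPL36; the next genes inward were RPL18 (0.21) and RPL29 (-0.26). No difference between the subunits was tested.

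Signal was high for nearly all of them. The brightest probe set had a mean intensity of at least 10000 in 47 of the 51, and the highest value of each array, 21562 on the SOX2 knockdown array and 23253 on the mock array, belonged to RPL41, the shortest ribosomal protein. At that intensity other genes were level too: of 63 genes outside the core and paralog lists with a mean of at least 10000, FAU among them, 0 differed by 2-fold. Their spread was larger, with an SD of 0.24 and a range from -0.55 to 0.66, against an SD of 0.10 and a range from -0.26 to 0.21 for the 47 core genes. The 2 sets share the lower limit of 10000 and were not matched for intensity above it. Whether signal near the top of the scanner range narrows differences was not tested. RPL37A, second to RPL41 in mean level among core genes, had 19680 on the SOX2 knockdown array and 20099 on the mock array (-0.03). Its dimmer probe sets differed by 0.04 and -0.45.

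Of the large subunit genes, RPL34 was furthest above 0. It had an intensity of 11137 on the SOX2 knockdown array, against 8072 on the mock array, a difference of 0.46 or 1.38-fold, at its single probe set. RPL18 had 15966 on the SOX2 knockdown array and 13809 on the mock array (0.21), and its 2 dimmer probe sets differed by 0.12 and 0.09. RPL24, whose loss of function in mice gives the Belly spot and tail phenotype, had 16047 against 14397 (0.16), and 0.20 at its further probe set. For these 3 genes, every one of the 6 probe sets was higher with SOX2 knocked down.

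The other large subunit genes among the 10 highest differed by less than 0.1. RPLP1, a protein of the acidic stalk that recruits elongation factors, stood at 18485 on the SOX2 knockdown array and 17343 on the mock array (0.09). RPL11, which binds MDM2 when ribosome assembly is disturbed, stood at 11485 against 10841 (0.08). RPL8, RPL31 and RPL30 differed by 0.07 each. A further probe set of RPLP1 differed by -0.06, so the direction for this gene depended on the probe set.

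At the low end of the large subunit stood RPL36, with an intensity of 6279 on the SOX2 knockdown array and 8707 on the mock array, a difference of -0.47, or 72.1% of the mock value. Its other probe set stayed under the floor. RPL29, a heparin-binding protein of the cell surface as well as of the ribosome, had 10473 on the SOX2 knockdown array and 12535 on the mock array (-0.26), with -0.31 at its second probe set. RPL14 had 11938 against 14133 (-0.24), and -0.31 and -0.37 at its further probe sets. All 3 genes were lower at every probe set that reached the floor.

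RPL32 (-0.20), RPL35A (-0.18), RPL38 (-0.17) and RPL39 (-0.15) completed the low end. RPL35A, a gene mutated in some patients with Diamond-Blackfan anaemia, had 12737 on the SOX2 knockdown array and 14435 on the mock array. Its further probe sets above the floor gave -0.20, -0.40 and 0.0048. RPL38, which in mouse embryos is needed for translation of a set of Hox mRNAs, had 12075 on the SOX2 knockdown array, against 13557 on the mock array, and its dimmer probe sets differed by -0.08 and -0.04. The stalk protein RPLP2 and RPL27A are named because every probe set annotated to them alone was dim, with 159 on the SOX2 knockdown array against 173 on the mock array for RPLP2 and 495 against 487 for RPL27A. Outside the 10 lowest and 10 highest, the 31 other core genes of both subunits lay between -0.12 and 0.03, and 25 of them below 0.

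Among small subunit genes, RPS27, a zinc-finger protein, was highest, at 16390 on the SOX2 knockdown array and 15111 on the mock array (0.12). RPS19, the gene most often mutated in Diamond-Blackfan anaemia, had 19419 against 17961 (0.11), with 0.15 and 0.25 at its further probe sets. RPS16 had 19242 against 18874 (0.03), and its further probe sets ran from -0.04 to 0.21. RPS19 was therefore higher at all 3 of its probe sets, and RPS16 at 3 of 4.

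RPS12 was lowest of the small subunit, at 15967 on the SOX2 knockdown array and 17959 on the mock array (-0.17), with -0.12 at its second probe set. RPS28 followed at 13527 against 15017 (-0.15) and RPS29 at 14834 against 16359 (-0.14). The substrate of the S6 kinases, RPS6, had 17182 on the SOX2 knockdown array and 17851 on the mock array (-0.06), and its 3 probe sets above the floor ran from -0.09 to -0.04. RPS18, of the head of the subunit, had 19493 against 19430 (0.0046) and was level. RPS6 was chosen after its values were seen.

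Probe sets of 1 gene gave a measure of how closely these arrays repeat themselves within a gene, though they share the culture, the RNA and the array and are not replicates. Among core probe sets with a mean intensity of at least 5000, 15 genes had several, and the SD between probe sets of the same gene was 0.04. The SD of differences over all 68 such probe sets, of 49 genes, was 0.14. Among the 31 core probe sets under 5000 the SD between probe sets of a gene was 0.42, from the 9 genes with several. Of 29 members with several probe sets above the floor, 19 had all of them within a range of 0.2, 19 had them all on one side of 0, and 4 had a range over 1. That spread holds nothing of the variation between cultures, and RPL36 and RPL34 had 1 probe set each above the floor, so that none was measured for them.

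**Figure D2:**
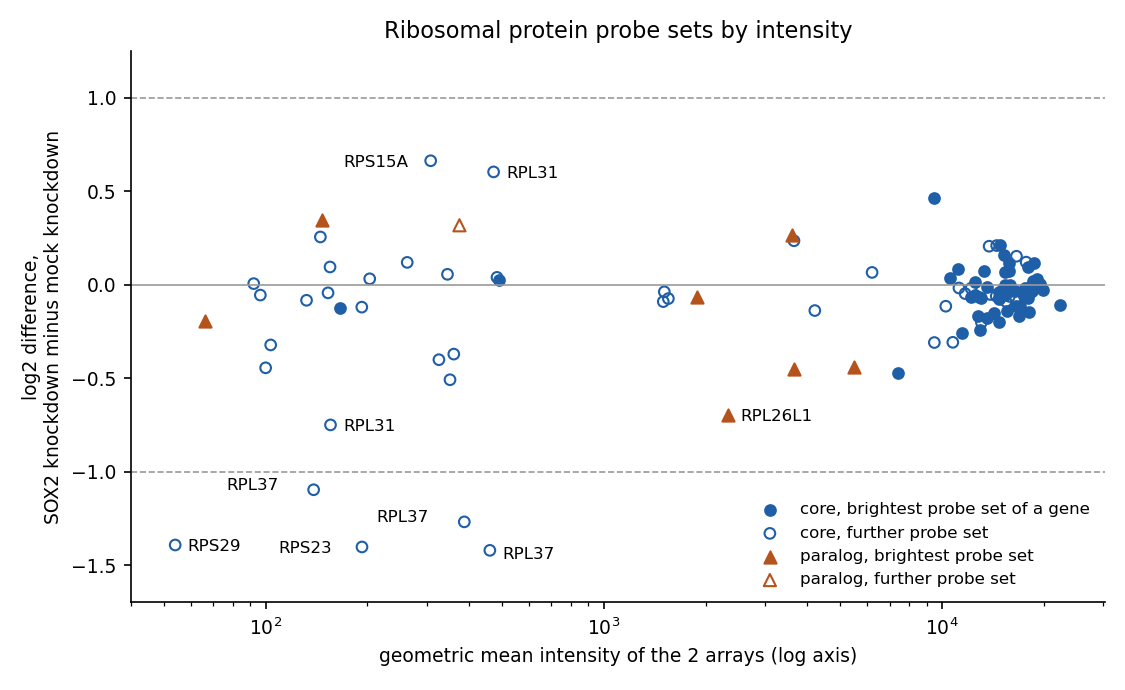
Log2 difference (SOX2 knockdown minus mock) of each of 107 member probe sets reaching the floor, against its geometric mean intensity on a log axis. Bright probe sets lie close to 0, and the 5 beyond 2-fold, of RPL37, RPS23 and RPS29, all lie at low intensity and on the lower side; the RPS29 value is plotted as deposited.

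The 5 core probe sets past 2-fold were all lower on the SOX2 knockdown array and belonged to 3 genes. They were 5 of 99 core probe sets above the floor, or 5.05%. Of all 24617 probe sets of 1 symbol that reached it, 15.0% passed 2-fold and 6.87% were lower by 2-fold. These shares are not at matched intensity, as all 5 had a mean under 1000. They made up 17.2% of the 29 member probe sets under 1000. Among all 20932 probe sets under 1000, 6.98% were lower by 2-fold, and the difference was not tested. RPL37 is a zinc-finger protein of the large subunit. Its brightest probe set, 200092_s_at, had 17483 on the SOX2 knockdown array and 18354 on the mock array (-0.07). Its probe sets 224763_at, 224767_at and 224766_at had 281 against 753 (-1.42), 249 against 600 (-1.27) and 94.8 against 203 (-1.10). All 3 of the dim probe sets of RPL37 were lower, while the bright one was level.

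RPS23, a protein of the decoding centre, and RPS29 showed the same split. RPS23 had 17467 on the SOX2 knockdown array and 17687 on the mock array at 200926_at (-0.02), and 119 against 313 at 227722_at (-1.40). The dim probe set of RPS29, 238824_at, had 33.3 on the SOX2 knockdown array, which is under the floor, against 87.6 on the mock array. Against the floor that difference is -0.35 or lower, so it passed 2-fold only as deposited. Which transcript each dim probe set matches is not given in the annotation. The remaining dim probe sets went both ways, such as RPS15A at 0.66 and -0.32 and RPL31 at 0.60 and -0.75, beside brightest probe sets at -0.03 and 0.07; RPS15A was chosen after its values were seen.

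Probe set names mark how far a probe set can match other transcripts, which matters for genes with many processed pseudogenes. Of the 51 brightest core probe sets, 26 ended in _s_at and 16 in _x_at, both of which can match several transcripts, and 9 in plain _at. Values of these genes can therefore hold signal from near-identical copies. The SD of differences was 0.18 over 39 member probe sets ending in _s_at, 0.14 over 35 ending in _x_at and 0.55 over 33 ending in _at. All 5 past 2-fold ended in plain _at, or 15.2% of the 33. Of all probe sets of 1 symbol above the floor, whatever their ending, 15.0% passed 2-fold and 6.87% were lower by 2-fold. The endings were not compared at matched intensity, and all 5 had a mean under 1000.

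The paralogs lay on both sides of 0, with RPL26L1, RPL7L1 and RPL36AL lowest and RPL10L and RPS27L highest. Of 8, 7 reached the floor, and 0 differed by 2-fold, against the 15.7% of all genes. Their median was -0.19, with 5 of 7 below 0, and they ran from -0.70 to 0.34, with an SD of 0.39 against 0.14 for the core genes. The median is the value of RPL3L, which was under the floor with SOX2 knocked down; it was -0.07 with values under the floor raised to it and -0.44 with the floor at the 75th percentile. Paralogs were dimmer than nearly all core genes, and under a mean intensity of 5000 the SD was 0.41 over 7 paralog probe sets and 0.55 over the 31 core ones. No difference in spread was tested.

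**Figure D3:**
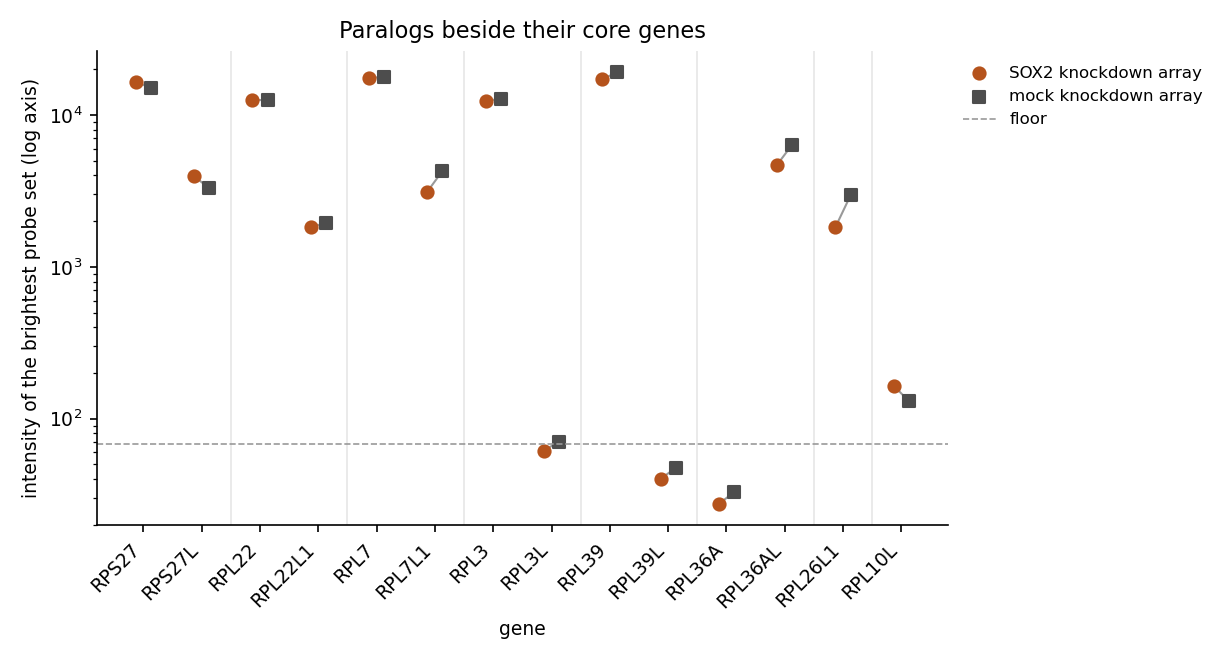
Intensity of the brightest probe set of each paralog and its core gene on the SOX2 knockdown array (circles, left) and mock array (squares, right), log axis. RPL26L1 and RPL10L stand alone, because RPL26 and RPL10 had no probe set annotated to them alone. Levels of different probe sets cannot be compared, so the slope within a gene is what can be read, and it is steepest downward to the left for RPL26L1, RPL7L1 and RPL36AL.

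RPL26L1, a close copy of RPL26 encoded elsewhere, was the paralog with the largest difference. It had 1824 on the SOX2 knockdown array and 2955 on the mock array, a difference of -0.70, or 61.7% of the mock value. It was the 1 paralog of 7 past 1.5-fold, or 14.3%, against 29.8% of all genes. RPL7L1, which takes part in assembly of the large subunit, had 3123 against 4278 (-0.45), while RPL7 had 17441 against 17812 (-0.03). RPL36AL, a copy of RPL36A, had 4698 on the SOX2 knockdown array and 6378 on the mock array (-0.44). The single probe set of RPL36A itself stayed under the floor on both arrays. All 3 of these paralogs were measured by 1 probe set each.

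RPS27L, a target gene of p53 that differs from RPS27 at few residues, was higher. It had 3945 on the SOX2 knockdown array and 3284 on the mock array (0.26), with 0.32 at its second probe set above the floor, and RPS27 differed by 0.12. RPL22L1, which in mouse cells rises when Rpl22 is lost, had 1839 on the SOX2 knockdown array and 1927 on the mock array (-0.07), beside RPL22 at 12575 against 12447 (0.01). The 5 probe sets of RPL22 ran from -0.14 to 0.23.

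The paralogs known for a restricted tissue were dim. RPL10L, expressed in testis, had 165 on the SOX2 knockdown array and 130 on the mock array (0.34). RPL3L, the form of skeletal and heart muscle, had 61.8 on the SOX2 knockdown array, under the floor, and 70.7 on the mock array. Against the floor its difference is -0.05 or lower, and -0.19 as deposited, while RPL3 had 12296 against 12800 (-0.06). RPL39L, another testis form, stayed under the floor at 40.2 on the SOX2 knockdown array and 47.5 on the mock array, beside RPL39 at 17184 against 19042.

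Sequences at the gene starts are shown because they set core genes and paralogs apart by a feature that the choice of members did not use. The RefSeq windows of build GRCh38.p14 held 52 of the 60 members. A start was counted as TOP-like where the first transcribed base was C and at least 4 pyrimidines followed. This held for 34 of 46 core genes, or 73.9%, against 1404 of 27305 genes in the table, or 5.14%. Among paralogs it held for 1 of 6, RPL22L1. The lines below give 20 bases before the start and 20 from it on, 5′ to 3′ on the gene's strand, with the start run in capitals where it was TOP-like.
RPS27: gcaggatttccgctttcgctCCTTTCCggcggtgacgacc
RPS27L: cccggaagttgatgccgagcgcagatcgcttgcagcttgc
RPL22: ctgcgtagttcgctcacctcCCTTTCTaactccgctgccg
RPL22L1: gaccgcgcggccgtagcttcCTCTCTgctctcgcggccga
RPL34: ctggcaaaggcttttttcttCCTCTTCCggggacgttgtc
RPL36: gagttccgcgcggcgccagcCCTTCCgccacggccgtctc
RPL26L1: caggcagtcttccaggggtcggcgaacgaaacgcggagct
RPL7L1: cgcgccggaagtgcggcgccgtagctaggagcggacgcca
RPL36AL: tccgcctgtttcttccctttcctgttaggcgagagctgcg
RPL10L: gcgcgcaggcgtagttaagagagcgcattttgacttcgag

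On the plus strand these stretches lie at chr1:153990742-153990781 for RPS27, chr4:108620556-108620595 for RPL34, chr19:5690275-5690314 for RPL36, chr5:172958709-172958748 for RPL26L1 and chr6:42879596-42879635 for RPL7L1. On the minus strand they lie at chr15:63157458-63157497 for RPS27L, chr1:6199576-6199615 for RPL22, chr3:170870176-170870215 for RPL22L1, chr14:49620607-49620646 for RPL36AL and chr14:46651762-46651801 for RPL10L. RPL34, the core gene furthest above 0, and RPL36, the one furthest below, both had a TOP-like start. Core genes with such a start had a median difference of -0.02 (33 genes, from -0.47 to 0.46), and the 12 without one had a median of -0.06, from -0.20 to -0.0027. RPL26L1 and RPL34 have 2 windows each, of which 1 is shown; neither window of RPL26L1 was TOP-like. At RPL36AL the run from the annotated start was 3 bases long, and further pyrimidines lie just before it.

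Letters of SOX sites were looked for in the same windows of 300 bases, 250 before the start and 50 from it on. The words CTTTGTT and CATTGTT, on either strand, were found in 0 of 46 core genes and 0 of 6 paralogs, against 2717 of 27305 genes, or 9.95%. The ETS word CCGGAAG, on either strand, was found in 17 of 46 core genes (37.0%) and 2 of 6 paralogs, RPL7L1 and RPS27L, against 12.2% of genes. In related lists it stood in 45.2% of assembly genes, 43.5% of mitochondrial ribosomal protein genes and 28.6% of translation factors, and the SOX words were in 2.38%, 2.90% and 3.57% of these lists. TATAAA, on either strand, stood in 3 of 46 core genes and in the paralogs RPL22L1 and RPL10L, against 14.0% of genes. These counts describe the letters in the windows only.

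The small differences of core genes went in part with those of the genes next to them on the chromosome. For each member the median difference was taken over up to 40 other measured genes on either side, in RefSeq order. Across the 51 core genes, the gene's own difference and the median of its neighbours correlated at Pearson's r = 0.69 and Spearman's rho = 0.69, a description across genes that all share the same pair of arrays. The same comparison was not made for other genes, so whether it is particular to ribosomal protein genes cannot be read from it. Of the 20 core genes whose neighbours had a median below 0, 19 were themselves below 0, against 35 of all 51 core genes. Of the 31 with neighbours above 0, 15 were above 0 and 16 below, among them RPL19 (-0.06, neighbours at 0.27), RPS7 (-0.06, neighbours at 0.16) and RPLP2 (-0.12, neighbours at 0.09). All 3 core genes of chromosome 9, RPS6, RPL35 and RPL12, also lay below 0 with neighbours above 0. Without RPL34 and RPS12, the 2 genes with the most extreme neighbours, r was 0.58, and with 20 or 80 genes a side it was 0.67 and 0.72. Without chromosomes 3 and 19, described next, r was 0.76 and rho 0.53 over 39 core genes. Those 39 still held RPL34 and RPS12, and the 2 exclusions were not combined. Over the 7 paralogs r was -0.02. What lies behind the shared direction was not tested.

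**Figure D4:**
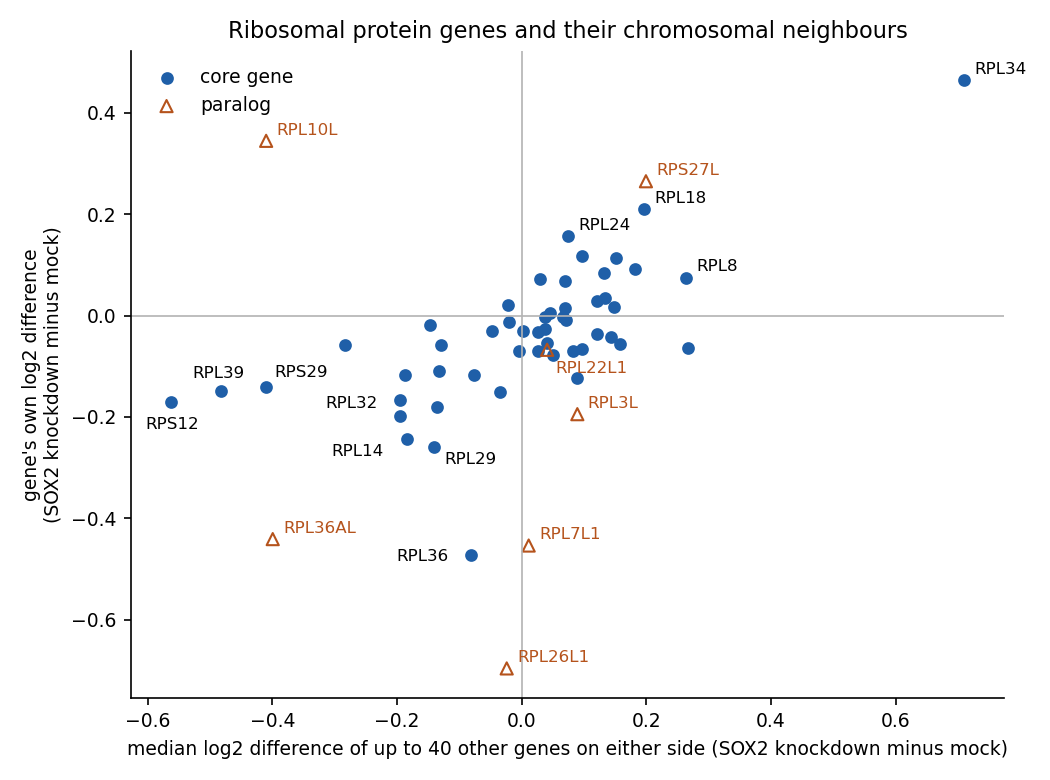
Log2 difference of each member (SOX2 knockdown minus mock, vertical axis) against the median difference of up to 40 other genes on either side of it (horizontal axis), core genes as filled circles and paralogs as open triangles. Core genes lie along a rising band (r = 0.69, 51 genes), with RPL34 at its upper end, while RPL26L1, RPL7L1 and RPL10L stand away from it.

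On chromosome 3 the first 3 core genes in order, RPL32 (-0.20), RPL14 (-0.24) and RPL29 (-0.26), were all lower on the SOX2 knockdown array. The 224 other measured genes between RPL32 and RPL29 had a median of -0.19, with 70.1% below 0. Beyond RPL29, the 451 other genes up to the chromosome's end had a median of 0.02, with 47.0% below 0. RPL24, in that later stretch, was higher (0.16), with a neighbour median of 0.07, and RPL35A, further on, was lower (-0.18), with a neighbour median of -0.14.

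Chromosome 19 also showed a split, with a weaker lower side than that of chromosome 3. RPS15 (-0.12), RPL36 (-0.47) and RPS28 (-0.15), its first 3 core genes, were lower. The 206 other genes up to RPS28 had a median of -0.06, with 58.3% below 0. Genes between RPS28 and RPS16 were in neither stretch. RPS16 (0.03), RPS19 (0.11), RPL18 (0.21) and RPS9 (0.03), its last 4, were higher, and the 390 other genes from RPS16 to the end had a median of 0.18, with 26.9% below 0. RPL36 lay further below 0 than its neighbours, whose median was -0.08.

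Elsewhere RPL34 on chromosome 4, at 0.46, had neighbours with a median of 0.71. RPS12 on chromosome 6, at -0.17, had neighbours at -0.56, RPL39 on chromosome X, at -0.15, had neighbours at -0.48, and RPS29 on chromosome 14, at -0.14, had neighbours at -0.41. These 4, named for the size of their neighbours' median, went the way of their surroundings by a smaller amount. Among the paralogs RPL36AL (-0.44) and RPS27L (0.26) stood near their neighbours' medians of -0.40 and 0.20. RPL26L1 (-0.70) and RPL7L1 (-0.45) did not, with neighbours at -0.02 and 0.01. RPL10L was higher at 0.34 among neighbours at -0.41.

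Mitochondrial ribosomal protein genes and ribosome assembly genes had lower medians than the core cytosolic ribosomal protein genes. Of 75 mitochondrial ribosomal protein genes, which build the separate ribosome of that organelle, 56 lay below 0 (74.7%, against 50.5% of all genes) and the median was -0.32. Of them 3 were lower and 1 higher by 2-fold, or 5.33%, against 15.7% of all genes. MRPL13 had 5238 on the SOX2 knockdown array and 2138 on the mock array (1.29), and MRPL52 had 864 against 1951 (-1.18). Of 42 measured genes of ribosome assembly and ribosomal RNA synthesis, 32 lay below 0 (76.2%) and the median was -0.31. Of them 6 were lower and 1 higher by 2-fold, or 16.7%, a share near the 15.7% of all genes. Medians of both lists stood below the -0.04 of core ribosomal protein genes and the -0.01 of all genes; the differences between lists were not tested.

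TSR1, an assembly factor of the small subunit, had 759 on the SOX2 knockdown array and 2506 on the mock array (-1.72), though its 4 probe sets ran from -1.72 to -0.36. NOB1, the nuclease that completes small subunit RNA, had 1134 against 3607 (-1.67). POLR1D, a subunit of RNA polymerases I and III, had 6850 against 3235 (1.08), and all 3 of its probe sets were higher. Assembly genes went both ways past 2-fold.

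Translation factors had a median of -0.09, with 19 of 31 below 0. Of them 1 was higher and 1 lower by 2-fold, or 6.45%, against 15.7% of all genes. EIF3H, of the scaffold that recruits the small subunit, had 10666 on the SOX2 knockdown array and 4717 on the mock array (1.18). EIF2S3, of the factor that brings the initiator tRNA, had 2481 against 5085 (-1.04). FAU, whose product holds a ribosomal protein fused to a ubiquitin-like protein, had 12291 against 12925 (-0.07) and stood with the core genes.

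Of 13 genes listed for the mTORC1 pathway and the control of TOP mRNAs, 3 were lower by 2-fold and 0 higher, or 23.1%. Of all genes, 7.29% were lower and 15.7% passed either way. This list was chosen with earlier results of these data known, so its share cannot be read as an excess. The median of the 13 genes was -0.12. EIF4EBP1, a brake on cap-dependent translation that mTORC1 releases, had 580 on the SOX2 knockdown array and 2529 on the mock array (-2.12). DDIT4, an inhibitor of mTORC1, had 452 against 5793 (-3.68). Of 4 measured genes in the pathway from free ribosomal proteins to p53, 0 differed by 2-fold and 2 lay below 0. Translation itself was not measured.

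**Figure D5:**
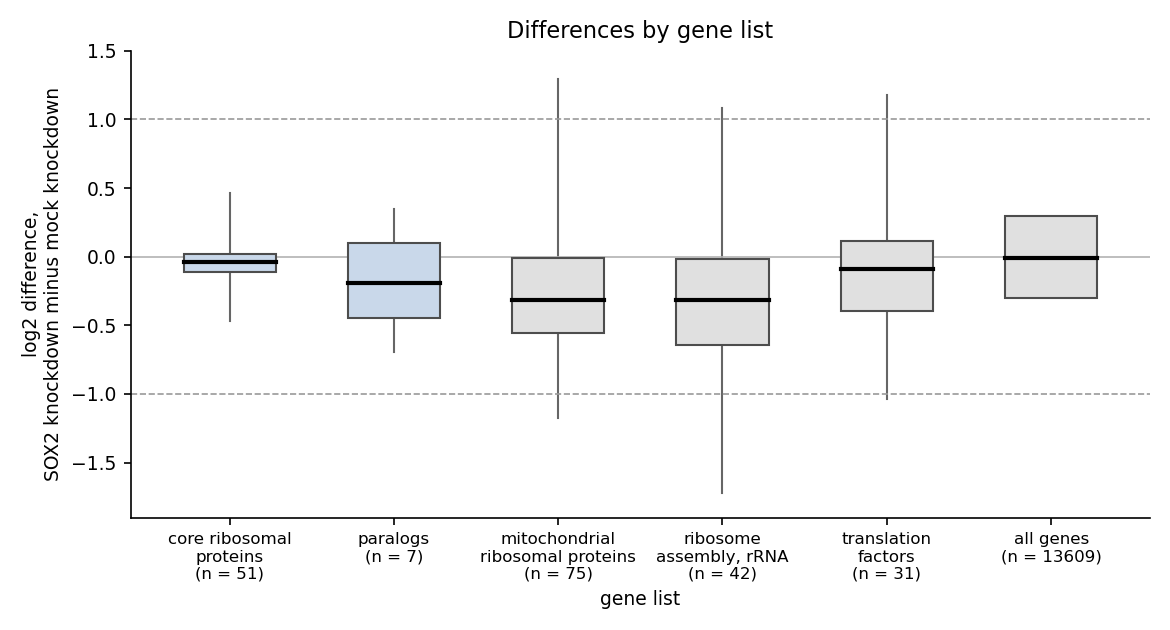
Log2 difference (SOX2 knockdown minus mock) by gene list, with all genes at the right. Boxes run from the first to the third quartile, thick lines are medians, thin lines reach the lowest and highest gene (not drawn for all genes) and dashed lines mark 2-fold; the core ribosomal protein box is the narrowest, around a median of -0.04, and the mitochondrial ribosomal and assembly lists have medians of -0.32 and -0.31.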

How the data were processed

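Per the submitters' processing notes, the authors summarised probes by RMA, of a version not given in the sources used here. The deposited values hold 1 intensity for each probe set on each array, on a linear scale as judged from the values. RMA normalizes quantiles between arrays, which hides any change in RNA content of the whole cell.

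Of 54675 probe sets 62 were controls, 41091 had 1 symbol, 1801 several and 11721 none. Only those with 1 symbol were named, and 0 symbols changed against the RefSeq table of GRCh38.p14. Log2 of the deposited intensity was used without a pseudocount. A gene was represented by its probe set of highest mean log2 value and entered when the higher value reached the floor (68.5, the median over all probe sets and both arrays). With 1 array per group no test was made, and genes were counted by a limit of 2-fold. Named were all paralogs, their core genes, the 10 highest, 10 lowest and 5 brightest core genes and genes with a probe set past 2-fold, and up to 2 genes a direction from other lists. Members and lists were chosen with earlier results of these data known, and the neighbour comparison and promoter words after the data were seen. Counting was tested on simulated data. Tools were matplotlib 3.10.9, scipy 1.17.1, pandas 2.3.3 and numpy 2.4.6 under Python 3.11.15.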

Additional observations from a re-analysis of the deposited data

How the results depend on the processing

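The median difference of the core genes stayed between -0.06 and -0.01 under 13 alternatives, which changed the normalization, the floor, the probe set of a gene, the pseudocount or the summary, and that of the paralogs between -0.44 and -0.07. The alternative normalizations acted on values already normalized by RMA, so they cannot show what RMA removed. Counts past 2-fold depended on the probe set. Instead of 0, there was 1 core gene (RPL37) with the median over probe sets, 1 (RPL37) with the brightest plain _at probe set among the 22 core genes that have one reaching the floor, and 3 (RPL37, RPS23 and RPS29) with the probe set of largest difference. At 1.5-fold 1 paralog, RPL26L1, passed, or 14.3%, against 29.8% of all genes. Instead of 5 core probe sets, 3 passed with the floor at the 75th percentile, 3 with a pseudocount of 32, 8 at a limit of 1.5-fold and 0 at 3-fold. Over all genes 4056 passed 1.5-fold and 1071 passed 3-fold, against 2140 at 2-fold. Raising values under the floor to it was chosen after seeing the data. Median centring moved every difference by 0.02. No paired analysis was possible because each group held 1 array. With so few arrays the precision of each value is unknown.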

Other observations

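A further 65 probe sets carried several symbols of which at least 1 was a core gene or paralog. Of these 60 reached the floor. Their median difference, SOX2 knockdown minus mock, was 0.01, with a range from -0.72 to 1.08, and 1 was higher and 0 lower by 2-fold, or 1.67%. They were not assigned to genes.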
